A study of Mus musculus with 12 samples.

Results

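The 10 genes described here carry out MHC class I antigen presentation. They were taken by their symbols from the 25655 genes counted in mouse retina: the class I chains *H2-K1*, *H2-D1* and *H2-T23*, their light chain *B2m*, the peptide loading genes *Tap1*, *Tap2* and *Tapbp*, the immunoproteasome subunits *Psmb8* and *Psmb9*, and the regulator *Nlrc5*. The rule names genes and uses no measured value. After optic nerve crush, *H2-D1* was higher with MBV than with fluvastatin or PBS and *H2-K1* was higher with MBV than with PBS. *Tapbp* was lower with fluvastatin than with PBS, and no other member passed the edgeR test. Each of these calls was lost without some single library. Those of *Tapbp* and of *H2-D1*, against fluvastatin and against PBS, were also lost under some other setting of the test. With a fold change of at least 2 required, none of the calls remained.

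The libraries came from whole retinas of C57BL/6J mice, given as 8 to 10 weeks old in the sample labels, collected on day 2 after optic nerve crush (ONC), an injury in which pressure damages the axons of retinal ganglion cells. Every group had the crush and a single injection into the vitreous, so no group was uninjured. The injection held PBS, fluvastatin (a statin, which blocks HMG-CoA reductase), or MBV, matrix-bound nanovesicles from the extracellular matrix of porcine urinary bladder, and 3 libraries were used in each of these groups. Retinas given MBV and fluvastatin together are not analysed here. The methods used mice of either sex at random, and the study prepared each condition in triplicate and calls its replicates biological. The labels do not tie libraries to animals, so p-values measure the spread between these samples.

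Class I molecules show peptides from inside the cell to CD8 T cells. The proteasome cuts proteins into peptides, the TAP transporter moves them into the endoplasmic reticulum, tapasin and its partners load them onto a heavy chain paired with beta-2 microglobulin, and the complex travels to the cell surface. In the immunoproteasome, subunits induced by interferon take the place of the constitutive catalytic subunits. NLRC5 is the transactivator of class I genes and acts through the conserved SXY module of their promoters, which NF-kB and interferon response elements accompany. The healthy retina is known for low class I expression.

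The promoter module is shown because *H2-K1*, *H2-D1* and *B2m*, the last on another chromosome, share it. Promoter sequences from RefSeq, 250 bases before to 50 bases after each start, were given for 8 of the 10 genes in a table of the GRCm38.p6 build, and each printed stretch matched GRCm39 exactly once on its chromosome. The pattern TGACG, 20 bases of any letter, then ATTGG (the X2 core and the inverted CCAAT box at the spacing of the SXY module, both strands searched) was in 31 of 32851 promoters (0.0944%) and in those of *H2-K1*, *H2-D1* and *B2m*. Capitals mark the letters searched in these stretches, which lie in GRCm39 at chr17:34219333-34219362 on the minus strand, chr17:35481969-35481998 on the plus strand and chr2:121978090-121978119 on the plus strand. The *H2-K1* stretch overlaps no annotated exon of its gene, while those of *H2-D1* and *B2m*, upstream of the RefSeq start, overlap an exon of GENCODE M39 transcripts that start further upstream.

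H2-K1: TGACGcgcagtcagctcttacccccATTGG
H2-D1: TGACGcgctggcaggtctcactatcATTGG
B2m: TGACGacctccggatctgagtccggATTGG

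The kB element of class I promoters, a site for NF-kB, was searched as 1 fixed run of 10 letters on both strands and was in 35 promoters (0.107%), those of *H2-K1* and *H2-D1* included. In *H2-K1* it lies upstream of the SXY spacing, as the next stretch shows with the kB element, TGACG and ATTGG in capitals (chr17:34219323-34219442 of GRCm39, minus strand, outside the annotated exons).

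H2-K1 upstream: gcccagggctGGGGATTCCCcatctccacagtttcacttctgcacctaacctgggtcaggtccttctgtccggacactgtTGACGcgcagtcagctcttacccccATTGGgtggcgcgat

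Over 130 bases compared without gaps, the *H2-K1* and *H2-D1* promoters had 118 in common (90.8%). The looser interferon pattern, GAAA, 2 bases of any letter and GAAA on either strand, was in 3.44% of promoters, those of *B2m* and *H2-T23* included. *H2-T23* is shown as the case of an interferon pattern without the SXY spacing in this window. Its stretch lies at chr17:36343698-36343727 of GRCm39, on the minus strand, with the pattern on the opposite strand in capitals, and also overlaps an annotated exon.

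H2-T23: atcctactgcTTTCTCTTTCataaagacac

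The 8 members on chromosome 17 lie between positions 34134873 and 36343747 of GRCm39 in the deposited tables, a stretch of 2.21 Mb. *B2m* lies on chromosome 2 at 121978167 to 121983564, and *Nlrc5* on chromosome 8 at 95160984 to 95253900. Some members share bases with a neighbour in ways that counting may not separate. *Tap1* and *Psmb9* overlap head to head by 212 bases, *Tapbp* overlaps *Zbtb22* on the same strand over 3422 bases, and *B2m* lies within *Patl2*, which had at most 1 count in any library. Class I chains also resemble each other: 1.55% of the 75-base windows of the *H2-K1* transcript, 6.85% of *H2-D1* and 14.6% of *H2-T23* occur in another gene, and their counts are uncertain by reads that fall there.

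The 9 libraries held 21349516 to 30992040 counts on genes, and levels are CPM, counts scaled to a common library total with TMM factors. The labels hold 2 runs of library numbers, with PBS in one and fluvastatin and MBV in the other, so in both comparisons with PBS the run and the treatment cannot be told apart. Retinal markers were present in all libraries and differed between groups: 6 photoreceptor genes summed to 37779 to 41017 CPM after PBS, 34063 to 36570 after fluvastatin and 26316 to 37475 after MBV, and 6 genes of Mueller glia and astrocytes to 2770 to 3383, 1665 to 2733 and 1487 to 2645 CPM. Every treated library lay below every PBS library in both sums. Retinal ganglion cell genes summed to 511 to 752 CPM over the 9 libraries. Erythroid genes summed to 6.61 to 8.58, 13.5 to 17.2 and 14.2 to 17.3 CPM. Pigment epithelium genes summed to 91.4 to 134 CPM after PBS, 33.6 to 42.6 after fluvastatin and 26.0 to 47.1 after MBV. That fall lay in the melanin genes *Pmel*, *Tyrp1*, *Mlana* and *Dct*. *Rpe65* on the same list had a higher mean with either treatment (4.65 CPM after PBS, 6.64 after fluvastatin, 6.07 after MBV). *Best1* was low throughout (0.603, 0.553 and 0.437 CPM). Lens genes summed to 0.798 to 4.26, 2.16 to 13.8 and 38.7 to 113 CPM. A library in each of 2 groups stood apart. PBS 3 was the highest of its group for 10 of the 10 members, where 40.1% of 15056 genes were highest, and MBV 3 held the highest sum of all 9 libraries for leukocyte, monocyte, neutrophil and MHC class II genes. In whole tissue, fewer cells of a type and less RNA per cell cannot be told apart.

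Levels per kilobase of exon, averaged over the 9 libraries, fell into an upper and a lower set. The length was the union of exons over all transcripts of a gene. For *H2-T23* that was 3427 bases, against 1472 in the transcript that GENCODE marks as canonical, and for *Tap2* 4766 against 3976. The order within each set therefore depends on the length used. *H2-D1* stood at 21.7 CPM per kb, *Tapbp* at 19.3, *B2m* at 15.1 and *H2-K1* at 7.90. The other members stood at 2.05 for *Tap2*, 1.37 for *H2-T23*, 0.906 for *Psmb8*, 0.888 for *Tap1*, 0.576 for *Nlrc5* and 0.277 for *Psmb9*. The lowest library of *H2-K1*, at 5.50 CPM per kb, lay above the highest library of *Tap2*, at 2.69, while all other neighbours in this order overlapped over the 9 libraries. The immunoproteasome genes rested on few reads, with 11 to 53 counts a library for *Psmb9* and 55 to 120 for *Psmb8*.

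**Figure D1:**
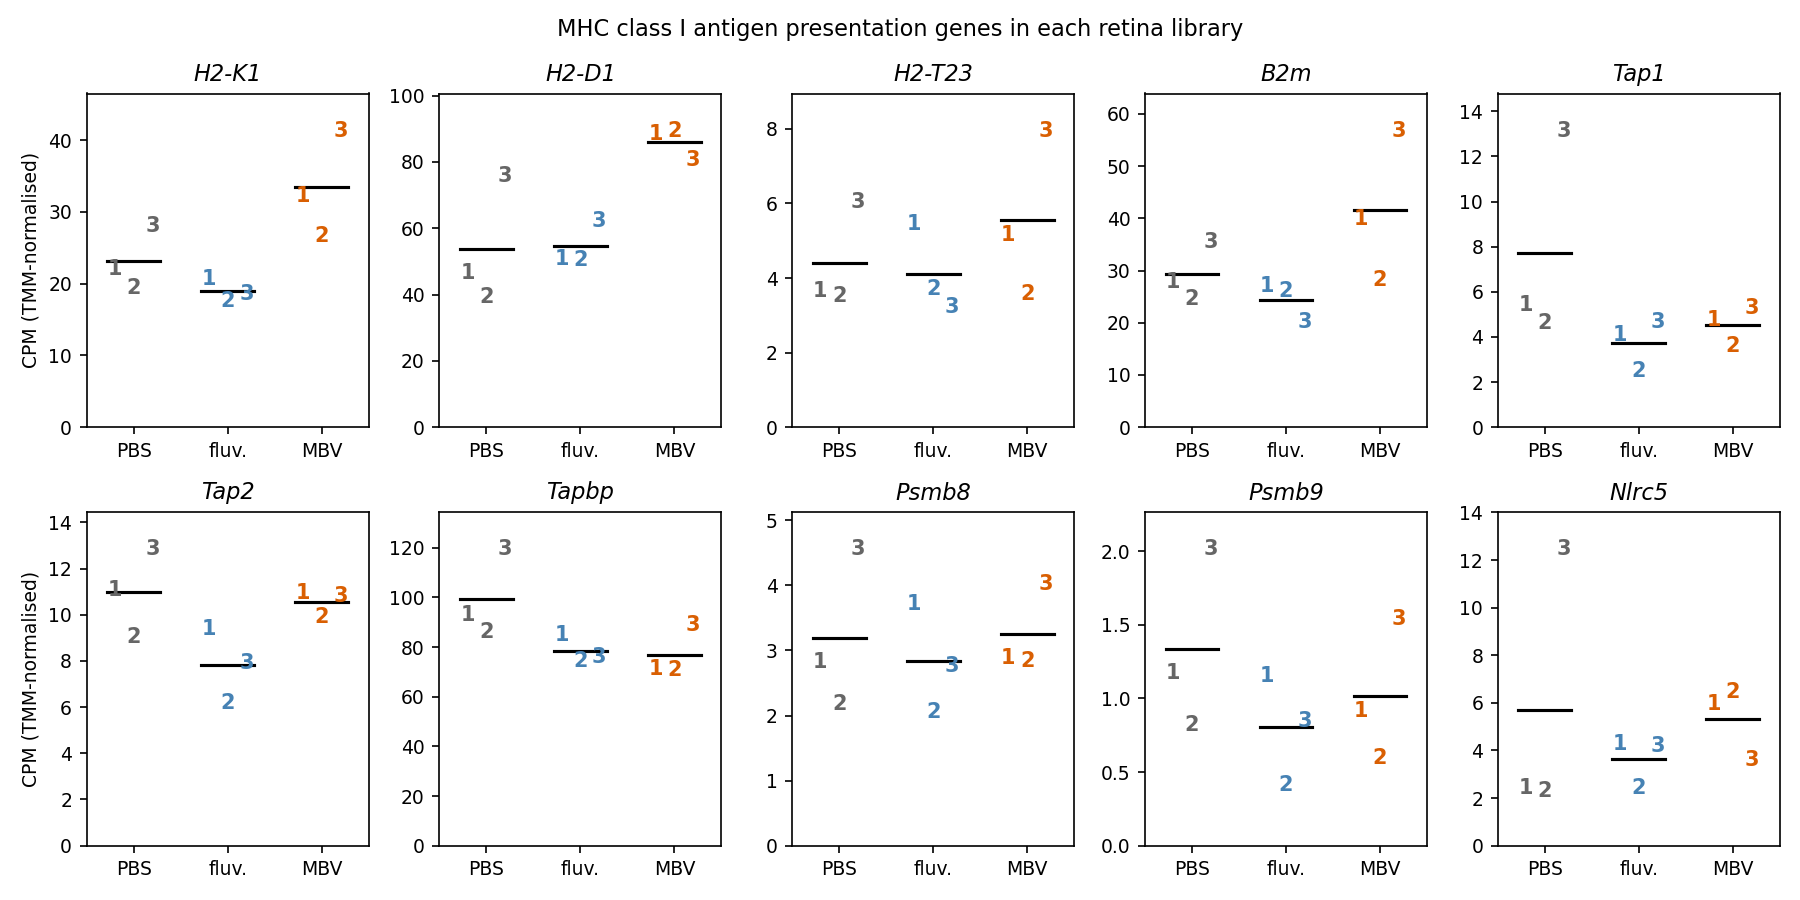
CPM (TMM-normalised) of the 10 genes in each library, one panel a gene with its own axis from 0; digits are the replicate numbers of PBS, fluvastatin (fluv.) and MBV, and bars are group means (n = 3). The 3 MBV libraries of *H2-D1* lie at 80.7 to 89.5 CPM, above all others, and PBS 3 is the top PBS library in every panel.

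*H2-D1*, which encodes the classical class I heavy chain D, measured 46.5, 39.2 and 75.6 CPM after PBS, 50.7, 50.5 and 62.3 after fluvastatin and 88.4, 89.5 and 80.7 after MBV. All 3 MBV libraries lay above the 6 others. The mean with MBV (86.2 ± 4.79, SD, n = 3) was 1.58-fold that with fluvastatin (54.5 ± 6.77), a log2 fold change of 0.66 (95% interval 0.47 to 0.85, edgeR FDR = 0.0318). *H2-D1* was the only member past an FDR of 0.05 in this comparison, where 11 of 18721 genes (0.0588%) passed, 0.0267% with higher and 0.032% with lower values. The call did not survive leaving out fluvastatin 1 (FDR = 0.0682), fluvastatin 2 (FDR = 0.145), MBV 1 (FDR = 0.270) or MBV 2 (FDR = 0.0795) in the same edgeR test, and it held without MBV 3 (log2 fold change 0.71, FDR = 0.00545) and without fluvastatin 3 (0.76, FDR = 0.0259). With all libraries in and about the same fold, it was also lost when more than 10 counts were required (FDR = 0.0772), with a replicate block (FDR = 0.224) and in the edgeR fit of all 9 libraries (FDR = 0.183), and it held under DESeq2 (adjusted p = 1.76e-08).

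Against PBS, *H2-D1* was 1.60-fold higher with MBV (log2 fold change 0.67, interval 0.23 to 1.12, edgeR FDR = 0.0323). PBS 3, at 75.6 CPM, was close to the lowest MBV library, and without it the log2 fold change was 1.00 (FDR = 0.00160). The call was lost without PBS 1 (FDR = 0.119), PBS 2 (FDR = 0.0849), MBV 1 (FDR = 0.0954) or MBV 2 (FDR = 0.0707), and under DESeq2 (adjusted p = 0.0690). With fluvastatin the level did not differ detectably from PBS (0.02, interval -0.41 to 0.45, edgeR FDR = 0.954). Without PBS 3 this value became 0.35 (FDR = 0.0494).

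*H2-K1*, the classical heavy chain K, measured 22.1, 19.4 and 28.0 CPM after PBS, 20.7, 17.5 and 18.5 after fluvastatin and 32.2, 26.7 and 41.3 after MBV. MBV libraries all lay above the fluvastatin libraries, and MBV 2 lay below PBS 3. The mean with MBV (33.4 ± 7.39) was 1.44-fold that with PBS (23.1 ± 4.41), with a log2 fold change of 0.52 (interval 0.15 to 0.90, edgeR FDR = 0.0450). With *H2-D1* this made 2 members higher with MBV than with PBS, where 4937 of 18897 genes (26.1%) were called, 12% higher and 14.1% lower. The members' share was near that of all genes. At an unadjusted p under 0.05 there were 4 members, against 37.8% of all genes, and 1 member was without overlap on the higher side and 0 on the lower side, against 20.3% and 21% of all genes. The call of *H2-K1* was lost without PBS 1 (FDR = 0.139), PBS 2 (FDR = 0.146), MBV 1 (FDR = 0.0981) or MBV 3 (FDR = 0.0611).

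The difference between MBV and fluvastatin was wider for *H2-K1*, 1.77-fold (log2 fold change 0.82, interval 0.50 to 1.14), but the edgeR FDR was 0.124. It passed under DESeq2 (adjusted p = 6.2e-05), without MBV 2 (edgeR FDR = 0.0195) and without MBV 3 (edgeR log2 fold change 0.64, FDR = 0.0195). Fluvastatin and PBS libraries overlapped, and their difference did not pass (-0.29, interval -0.56 to -0.02, edgeR FDR = 0.126). Without PBS 2 that value was -0.40 (edgeR FDR = 0.0419).

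*B2m*, the light chain that every class I heavy chain needs, measured 27.8, 24.6 and 35.5 CPM after PBS, 27.0, 26.1 and 20.1 after fluvastatin and 39.9, 28.3 and 56.8 after MBV. MBV 3 was the highest library, and MBV 2 was close to fluvastatin 1. The MBV libraries still lay above all fluvastatin libraries, with a log2 fold change of 0.77 (interval 0.29 to 1.25) that did not pass (edgeR FDR = 0.305). Against PBS the value was 0.50 (interval 0.00 to 1.00, edgeR FDR = 0.130), which passed without MBV 2 (0.72, FDR = 0.0190). For fluvastatin against PBS it was -0.26 (edgeR FDR = 0.226). Across the 9 libraries *B2m* followed *H2-K1* more closely than any other pair of members did (Pearson r = 0.940 of log2(CPM + 0.5)), a description over libraries that share their groups and depth.

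*H2-T23* encodes the nonclassical chain Qa-1, which shows leader peptides of classical chains to receptors of natural killer cells. Its levels were 3.64, 3.51 and 6.04 CPM after PBS, 5.44, 3.70 and 3.22 after fluvastatin and 5.15, 3.56 and 7.96 after MBV, and all groups overlapped. The log2 fold change was 0.43 for MBV against fluvastatin (edgeR FDR = 0.628), 0.34 for MBV against PBS (FDR = 0.456) and -0.09 for fluvastatin against PBS (FDR = 0.835). The 4 chains thus had positive values in both comparisons of MBV, and *H2-D1* and *H2-K1* passed the test in at least 1 of them.

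**Figure D2:**
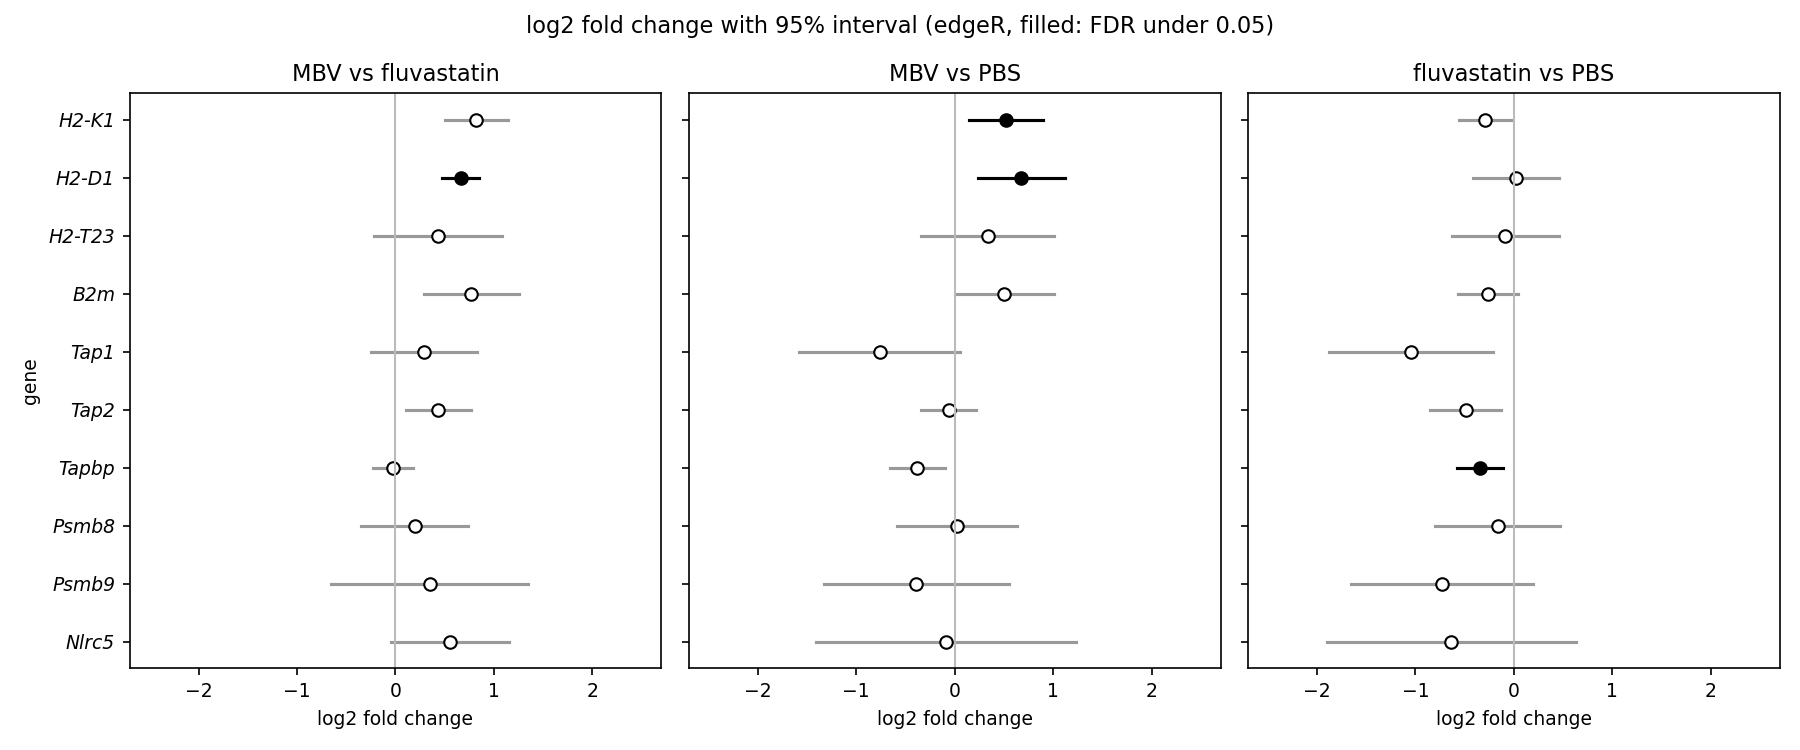
log2 fold change (x axis) of each of the 10 genes (y axis) with its 95% interval from edgeR, for MBV against fluvastatin, MBV against PBS and fluvastatin against PBS (n = 3 a group); filled points have an FDR under 0.05. *H2-D1* at 0.66 is filled at the left, *H2-K1* at 0.52 and *H2-D1* at 0.67 in the middle, and *Tapbp* at -0.34 at the right.

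Among the peptide loading genes, values against PBS were negative with either treatment. *Tapbp*, which encodes tapasin, the bridge between TAP and the heavy chain, measured 93.0, 85.9 and 119 CPM after PBS, 84.8, 74.3 and 76.1 after fluvastatin and 71.2, 70.9 and 88.8 after MBV. The fluvastatin libraries all lay below the PBS libraries, as in 19.3% of all genes, with fluvastatin 1 close to PBS 2. The level was 1.27-fold lower with fluvastatin (log2 fold change -0.34, interval -0.58 to -0.11, edgeR FDR = 0.0448), the only member called where 3687 of 18818 genes (19.6%) were called, 9.36% higher and 10.2% lower. At an unadjusted p under 0.05 there were 4 members, against 32.5% of all genes. This call was lost without PBS 1 (FDR = 0.0753), PBS 3 (-0.19, FDR = 0.0899), fluvastatin 2 (FDR = 0.170) or fluvastatin 3 (FDR = 0.124). It was also lost when more than 10 counts were required (FDR = 0.0566) and in the edgeR fit of all 9 libraries (FDR = 0.0642). *Zbtb22*, which shares bases with *Tapbp*, measured 61.3 ± 1.20 CPM after PBS, 66.6 ± 2.77 after fluvastatin and 62.0 ± 5.99 after MBV.

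With MBV, *Tapbp* was -0.38 on the log2 scale against PBS and just missed the threshold (interval -0.66 to -0.10, edgeR FDR = 0.0524). It passed without PBS 2 (FDR = 0.0390) or MBV 3 (-0.49, FDR = 0.00407) and under DESeq2 (adjusted p = 0.0130). MBV and fluvastatin had nearly equal means, 77.0 ± 10.2 and 78.4 ± 5.63 CPM (-0.03, interval -0.23 to 0.18, edgeR FDR = 0.934).

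*Tap1* and *Tap2* encode the subunits that together form the peptide transporter. *Tap1* measured 5.43, 4.61 and 13.1 CPM after PBS, 4.08, 2.47 and 4.66 after fluvastatin and 4.75, 3.61 and 5.26 after MBV. PBS 3 was well above the 8 other libraries, which lay between 2.47 and 5.43. The log2 fold change against PBS was -1.04 for fluvastatin (interval -1.87 to -0.21, edgeR FDR = 0.0772) and -0.76 for MBV (interval -1.58 to 0.06, FDR = 0.159), and without PBS 3 these were -0.43 (FDR = 0.250) and -0.15 (FDR = 0.585). Without PBS 2 the fluvastatin value was -1.31 and passed (FDR = 0.0360), and with all libraries in it passed with the replicate block.

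*Tap2* varied less, at 11.0, 9.04 and 12.8 CPM after PBS, 9.39, 6.17 and 7.89 after fluvastatin and 10.9, 9.91 and 10.8 after MBV. Every MBV library lay above the fluvastatin libraries (log2 fold change 0.44, interval 0.10 to 0.77, edgeR FDR = 0.370). *H2-K1*, *H2-D1*, *B2m* and *Tap2* were thus 4 of 10 members without overlap on the higher side between MBV and fluvastatin and 0 were on the lower side, against 8.53% and 7.88% of all genes tested. At an unadjusted p under 0.05 there were 4 members, against 10.7% of all genes. Against PBS, *Tap2* was -0.49 with fluvastatin (interval -0.85 to -0.13, edgeR FDR = 0.0592), which passed under DESeq2 (adjusted p = 0.0367), and -0.06 with MBV (edgeR FDR = 0.739). Leaving out PBS 2 (-0.61, FDR = 0.0360) or fluvastatin 1 (-0.65, FDR = 0.00868) brought the fluvastatin value past the threshold.

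The immunoproteasome genes were low and showed no difference that passed. *Psmb8*, the LMP7 subunit, measured 2.83, 2.18 and 4.56 CPM after PBS, 3.71, 2.06 and 2.76 after fluvastatin and 2.89, 2.83 and 4.02 after MBV. *Psmb9*, the LMP2 subunit, measured 1.17, 0.819 and 2.01, then 1.15, 0.411 and 0.848, and 0.914, 0.594 and 1.54 CPM in the same order. All groups overlapped for both. For *Psmb8* the log2 fold change was 0.19 for MBV against fluvastatin (interval -0.35 to 0.74, edgeR FDR = 0.778), and for *Psmb9* 0.35 (interval -0.66 to 1.35, FDR = 0.787). Against PBS, *Psmb8* was -0.16 with fluvastatin (FDR = 0.728) and 0.02 with MBV (FDR = 0.959), and *Psmb9* was -0.73 (FDR = 0.261) and -0.39 (FDR = 0.524). No difference was detectable at these counts.

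The constitutive subunits that these replace did not pass the test in any of the 3 comparisons. *Psmb5*, which *Psmb8* replaces, measured 35.7 ± 0.855 CPM after PBS, 34.3 ± 2.75 after fluvastatin and 33.2 ± 1.16 after MBV, and *Psmb6*, which *Psmb9* replaces, 50.6 ± 1.10, 51.7 ± 1.87 and 48.5 ± 3.17. The ratio of *Psmb8* to *Psmb5* within a library was highest in PBS 3, at 0.126, and in MBV 3, at 0.118, and lay between 0.0628 and 0.112 in the other 7. Beside them, *Psmb10*, the third immunoproteasome subunit, had a log2 fold change of -0.56 with MBV against PBS (edgeR FDR = 0.115), and the interferon-inducible activator genes *Psme1* (0.13, FDR = 0.305) and *Psme2* (-0.02, FDR = 0.931) did not pass.

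*Nlrc5*, the class I transactivator, depended most on a single library. Its counts were 74, 67 and 328 after PBS, 104, 65 and 99 after fluvastatin and 163, 141 and 84 after MBV, which are 2.40, 2.29 and 12.5 CPM, 4.28, 2.43 and 4.20 CPM, and 5.96, 6.44 and 3.59 CPM. PBS 3 was 5.31-fold the mean of the other PBS libraries. With it the log2 fold change for MBV against PBS was -0.09 (interval -1.41 to 1.23, edgeR FDR = 0.930), and without it 1.17 (FDR = 0.0170). For fluvastatin the value turned from -0.64 (FDR = 0.487) to 0.63 (FDR = 0.122). Between MBV and fluvastatin it was 0.56 (interval -0.04 to 1.15, FDR = 0.495), and MBV 3 lay within the range of fluvastatin.

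Taking the 10 genes as a list, 9 had a positive log2 fold change for MBV against fluvastatin, with a median of 0.43 beside 0.01 for all genes tested. Against PBS, 9 were negative with fluvastatin (median -0.32 beside -0.01 for all genes), and with MBV 5 were positive and 5 negative (median -0.02 beside 0.01). By role, with MBV against PBS, the 4 chains were all positive, with a median of 0.51, and the 3 loading genes all negative, with a median of -0.38. Without PBS 3 the chains had a median of 0.67, and the loading genes were 1 positive and 2 negative, with a median of -0.15. Without MBV 3, 3 of the 4 chains were positive, with a median of 0.28. These comparisons share their control libraries, so their values are not separate evidence. Without PBS 3, the median over the members became -0.11 for fluvastatin and 0.49 for MBV. Without PBS 3 and MBV 3, 5 members passed for MBV against PBS: *H2-D1* (1.04), *H2-K1* (0.50), *B2m* (0.38) and *Nlrc5* (1.39) were higher and *Tapbp* (-0.34) was lower, where 15.9% of all genes were called higher and 17.1% lower. These libraries were picked after the values were seen. PBS 3 held the highest PBS value of all 10 members, so leaving it out raises their values against PBS. The count of 5 therefore supports nothing further.

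**Figure D3:**
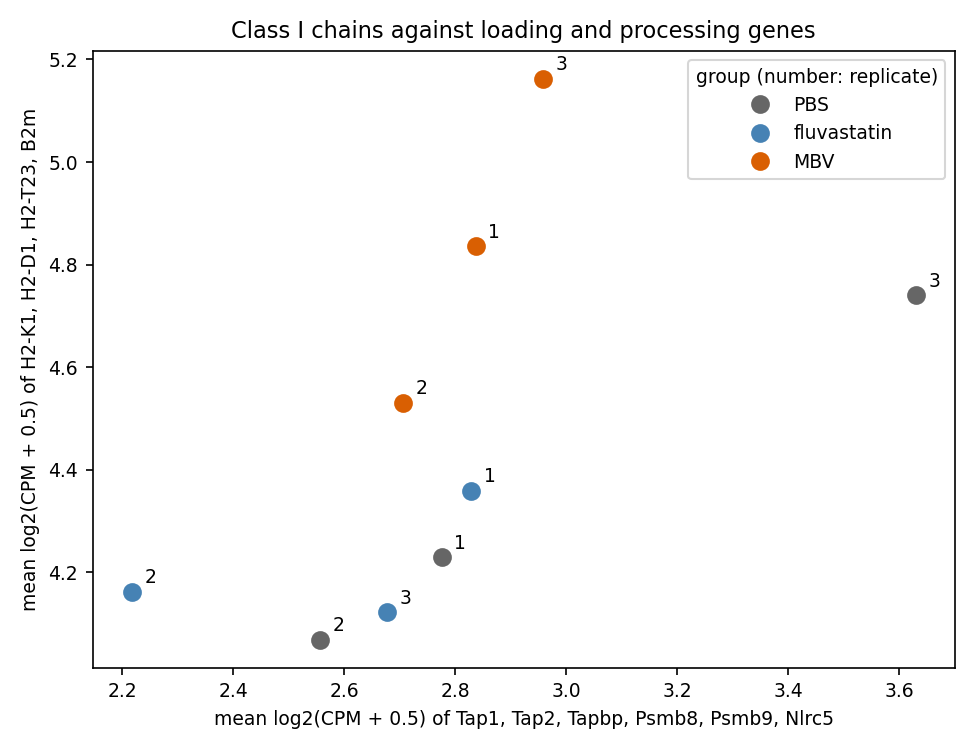
Mean log2(CPM + 0.5) of the 4 chains (y axis) against that of the 6 loading, immunoproteasome and regulator genes (x axis), one point a library, coloured by group with the replicate number beside it. MBV libraries have chain means of 4.53 to 5.16 at processing means of 2.71 to 2.96, and PBS 3 stands alone at 3.63 on the x axis.

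The mean log2(CPM + 0.5) of the chains was 4.35 ± 0.351 with PBS, 4.21 ± 0.127 with fluvastatin and 4.84 ± 0.316 with MBV, and that of the other 6 genes was 2.99 ± 0.567, 2.57 ± 0.319 and 2.83 ± 0.126. The chain mean of PBS 3, 4.74, lay above that of MBV 2, 4.53. For the other 6 genes MBV 1 (2.84) and MBV 3 (2.96) lay above PBS 1 (2.78) and PBS 2 (2.56), and PBS 3 (3.63) alone put the PBS mean above that of MBV. The ratio of *H2-K1* to *Tapbp* counts, which needs no scaling between libraries and was picked after the values were seen, was 0.237, 0.226 and 0.234 after PBS, 0.244, 0.236 and 0.243 after fluvastatin and 0.453, 0.376 and 0.465 after MBV. It describes a pair chosen for its difference and supports nothing further.

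Other class I heavy chain genes were measured beside the members. Of 15 on the list, 13 were tested, and 4 rose with MBV against PBS, none fell, and the median was 0.24, where 12% of all genes rose and 14.1% fell. *H2-Q7*, which encodes Qa-2, measured 0.715, 0.546 and 1.03 CPM after PBS and 1.72, 1.32 and 1.63 after MBV (log2 fold change 1.03, edgeR FDR = 0.0276). *H2-Q4* went from 4.87, 4.13 and 8.36 to 9.06, 9.64 and 9.75 CPM (0.71, FDR = 0.0421). *H2-Q6* (0.87, FDR = 0.0259) and *H2-T24* (0.46, FDR = 0.0127) were the others. All 4 lay above PBS without overlap, as 20.3% of all genes did. With fluvastatin against PBS 0 of the 13 were called by edgeR, with 0 at an unadjusted p under 0.05 and 0 by DESeq2. For MBV against fluvastatin 0 were called by edgeR, with 5 at an unadjusted p under 0.05 and 1 by DESeq2, *H2-Q4*. *H2-Q6* and *H2-Q7* share 18.3% and 27.5% of their 75-base windows with other genes, each other included, so their counts are uncertain.

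Class I-like molecules share the fold of class I heavy chains but mostly have other tasks. Of 5 tested, 2 fell with fluvastatin and 1 with MBV against PBS, and none rose, where 10.2% and 14.1% of all genes fell. *Hfe*, an iron regulator that pairs with beta-2 microglobulin, measured 14.6, 13.7 and 13.4 CPM after PBS, 8.86, 8.11 and 7.25 after fluvastatin and 7.38, 6.81 and 8.38 after MBV. It fell with fluvastatin (-0.79, edgeR FDR = 0.00104) and with MBV (-0.90, FDR = 5.98e-04). *Mr1*, which presents vitamin metabolites, fell with fluvastatin (-0.61, FDR = 0.0370), and *Fcgrt*, the neonatal Fc receptor, just missed (-0.66, FDR = 0.0518).

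Among 5 other loading and trimming genes, 2 rose and 1 fell with fluvastatin, and 1 rose and 1 fell with MBV, all against PBS. Of all genes, 9.36% rose and 10.2% fell with fluvastatin, and 12% rose and 14.1% fell with MBV. *Calr*, the chaperone calreticulin, measured 231 ± 5.25 CPM after PBS, 358 ± 39.5 after fluvastatin and 334 ± 20.9 after MBV (0.63, edgeR FDR = 7.81e-04, and 0.52, FDR = 5.31e-04). *Erap1*, which trims peptides in the endoplasmic reticulum, went from 33.9 ± 1.86 to 22.2 ± 2.16 and 22.7 ± 1.67 CPM (-0.62, FDR = 0.00109, and -0.59, FDR = 8.01e-04). *Pdia3*, the disulfide isomerase ERp57 of the complex, rose with fluvastatin (0.24, FDR = 0.0229) and not by the test with MBV (0.08, FDR = 0.271). *Calr* and *Erap1* did not differ detectably between MBV and fluvastatin (-0.10, FDR = 0.691, and 0.04, FDR = 0.904), and neither is limited to class I presentation.

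Genes of the constitutive proteasome core were called in one direction. Of 14 genes, 10 fell with MBV and 7 with fluvastatin against PBS, and none rose, where 14.1% and 10.2% of all genes fell. *Psma1* measured 41.6 ± 2.44 CPM after PBS, 32.1 ± 0.666 after fluvastatin and 28.7 ± 1.90 after MBV, and *Psma2* 70.3 ± 2.13, 57.8 ± 1.33 and 55.3 ± 1.72. The sizes were small, with a median log2 fold change of -0.28 for MBV and -0.17 for fluvastatin. Without PBS 3, 8 fell with MBV and 4 with fluvastatin. Photoreceptor, Mueller glia and pigment epithelium sums were likewise lower in every treated library than in every PBS library (above), though *Rpe65* was not. Erythroid sums were higher, and lens sums were highest after MBV. Their part in this result was not tested.

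**Figure D4:**
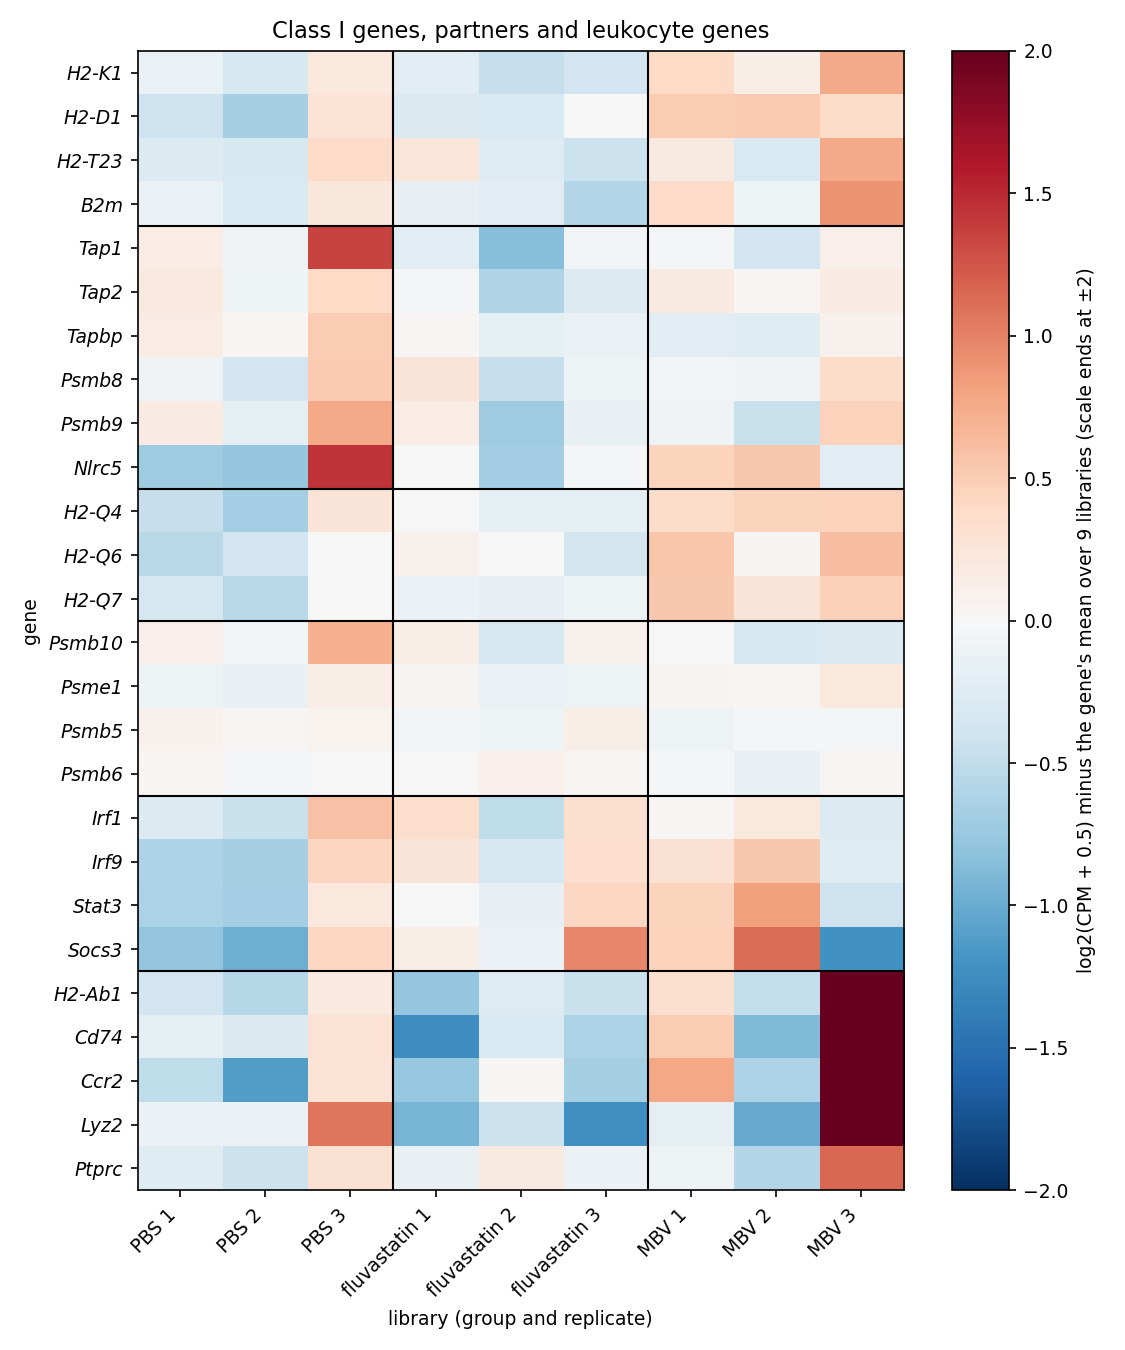
log2(CPM + 0.5) of each gene minus its mean over the 9 libraries, from -2 (blue) to 2 (red), with libraries as columns and genes as rows in blocks: the chains, the other 6 members, other class I chains, proteasome subunits, regulators, and class II or leukocyte genes. PBS 3 is red in the block of *Tap1* to *Nlrc5*, and MBV 3 is red in the lowest block, where *Lyz2* reached 55.9 CPM.

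Regulators upstream of class I were called in both directions. Of 19 genes, 2 rose (*Nfkb1*, a subunit of NF-kB, 0.32, edgeR FDR = 0.0135, and *Nfya*, 0.19, FDR = 0.0192) and 2 fell (*Nfyb*, -0.27, FDR = 0.00567, and *Nfyc*, -0.31, FDR = 0.00240) with MBV against PBS, near the 12% and 14.1% of all genes. The last 3 encode subunits of NF-Y, which binds the CCAAT box printed above. *Irf1*, an interferon factor that acts on class I promoters, was highest in PBS 3, at 11.0 CPM beside 4.90 to 9.31 in the other libraries. Without PBS 3, 6 regulators rose and 2 fell with MBV, where 10.4% and 11.7% of all genes did. With fluvastatin 6 rose and 0 fell, where 8.32% and 7.88% of all genes did. Without PBS 3 and MBV 3, 13 rose and 2 fell with MBV, where 15.9% and 17.1% of all genes did. The choice to leave out both libraries was made after seeing the data. *Stat3* and *Socs3* were high in PBS 3 (1.82 and 2.55-fold the mean of the other PBS libraries). They were low in MBV 3 (0.477 and 0.226-fold the other MBV libraries). Other regulators, such as *Ciita* (0.694-fold), were not high in PBS 3. Leaving out these libraries raises the values of genes like *Stat3*, so these counts support nothing further. Interferon itself was not read: *Ifng* and *Ifnb1* had 0 counts in the 9 libraries, where a count of 0 allows up to 3 counts a library, by counting error alone. Among receptors and their kinases, *Tyk2* rose (0.21, FDR = 0.0359) and *Jak1* (-0.14, FDR = 0.0418) and *Jak2* (-0.17, FDR = 0.0325) fell with MBV against PBS, and without PBS 3 none of the 3 passed.

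Genes whose pattern over the 9 libraries was most like the mean of the members, among 15046 others with a mean of at least 10 counts, were *Rnf213* (Pearson r = 0.962), *Irf7* (0.958), *Parp14* (0.939), *Tnfaip2* (0.938) and *Pik3ap1* (0.935). *Irf7* measured 9.16, 8.63 and 21.5 CPM after PBS, 11.99, 8.37 and 11.5 after fluvastatin and 15.6, 11.4 and 18.6 after MBV. PBS 3 and MBV 3 were its highest libraries, as they were for the mean of the members. The libraries share depth and groups, and these r values are descriptions.

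The libraries PBS 3 and MBV 3 differed in which genes were high. Relative to the other PBS libraries, PBS 3 was 1.28 to 5.31-fold for the members, with a median of 1.73. *Lyz2*, a lysozyme of myeloid cells, was at 15.1 CPM there beside 6.30 and 6.31 in the other PBS libraries, *Cd74* at 6.08 beside 4.22 and 3.89, and 6 leukocyte genes summed to 29.9 CPM beside 21.3 and 18.1. MBV 3 was the highest of its group for 7 of the 10 members, where 38.7% of 15056 genes were highest, and *H2-D1* and *Nlrc5* were lowest there. In it, *Lyz2* was at 55.9 CPM beside 6.07 and 3.20, *Ccr2*, the receptor of inflammatory monocytes, at 9.50 beside 2.38 and 0.594, and 9 MHC class II genes summed to 83.1 CPM beside 19.95 and 9.23. Leukocyte genes summed to 44.7 CPM beside 23.2 and 20.8.

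These markers were high in MBV 3 together with *H2-K1*, *B2m*, *H2-T23*, *Tap1*, *Tapbp*, *Psmb8* and *Psmb9*, whose MBV maximum was also MBV 3. The part of the markers in those values was not tested. *H2-D1* was as high without MBV 3 (88.4 and 89.5 CPM). Markers of T and natural killer cells were near 0: 4 of 8 (*Cd3g*, *Trbc1*, *Trbc2* and *Ncr1*) had no count in any library, and the sum was at most 0.214 CPM. Among receptors that read class I, 0 of 9 tested for MBV against PBS were called by edgeR, with 2 at an unadjusted p under 0.05 and 0 by DESeq2, and *Pirb*, an inhibitory receptor of myeloid cells, reached 3.25 CPM in MBV 3 beside 0.950 and 0.320 in the other MBV libraries.

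MHC class II genes, which present peptides from outside the cell, were counted for comparison. Of 9 tested, *H2-DMa* alone rose with MBV against PBS (0.50, edgeR FDR = 0.0423), a call lost without PBS 3 (FDR = 0.0837) or MBV 3 (FDR = 0.0848), and DESeq2 called 0 of the 9. *H2-Ab1* measured 3.03, 1.51 and 14.3 CPM after MBV and 1.66, 1.40 and 2.74 after PBS (1.70, FDR = 0.109). Without MBV 3 its value was 0.26 (FDR = 0.610), and the median over the 9 class II genes went from 1.57 to 0.04, while the median over the 4 class I chains went from 0.51 to 0.28. Without that library 1 of the 4 chains was called against PBS, *H2-D1* (edgeR FDR = 0.0119), for which MBV 3 was the lowest MBV library. The call of *H2-K1*, which was highest in MBV 3, was lost (above).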

How the data were processed

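RNA of whole retinas was sequenced as 75-base paired-end reads from total RNA libraries. Per the labels and the study's methods, the authors mapped reads to GRCm39 with CLC Genomics Workbench 22.0.2 and deposited raw counts per gene. Whether strand was used in counting is not given in the sources used here. The tables also hold the authors' fold changes and p-values, which were not used. Another 6 count columns name no library and were not used, so the combined treatment is not analysed here and 3 of 6 planned comparisons were made.

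Groups followed the sample labels, with 3 libraries each. Genes with a count in at least 1 library of a comparison were tested on the deposited counts with edgeR 4.0.16 in R 4.3.3 (TMM, quasi-likelihood test, two-sided, Benjamini-Hochberg FDR under 0.05 over all genes tested), a procedure tested on simulated data. The simulation held larger fold changes than those of the members called and no outlying library, so it does not bear on those calls. CPM used TMM factors over the 9 libraries, and levels per kb used GENCODE M39 exons. Intervals are 95% intervals of the fit. Alternatives were other size factors, count filters, DESeq2 1.42.0, a replicate block, a fold minimum, a fit of all 9 libraries and leaving out libraries. Replicates of a group differed by more than sampling noise.

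All 10 members were named. Of other lists, up to 4 genes with the smallest p for MBV against PBS were named, plus direct partners of members. *Zbtb22*, *Patl2*, *Lyz2*, *Cd74* and *Ccr2* were named after their values were seen. Members and lists were chosen with earlier results of these data known.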

Additional observations from a re-analysis of the deposited data

How the results depend on the processing

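With all libraries in, the number of members past an FDR of 0.05 was 1 for MBV against fluvastatin, 1 for fluvastatin against PBS and 2 for MBV against PBS. A fold change of at least 2 left 0 in each of the 3. In the same order, 2 of 18721, 220 of 18818 and 369 of 18897 genes passed at that fold, so few members could be looked for. For MBV against fluvastatin, 0 members passed with more than 10 counts required in at least 2 libraries of a group (5 genes in all), 2 by DESeq2 (122 genes), 0 with the replicate block (0 genes) and 0 in the fit of all 9 libraries (38 genes), where 11 genes passed in the edgeR fit of the groups compared. For fluvastatin against PBS, 0 members passed with that count filter (3784 genes), 2 by DESeq2 (3557) and 3 with the replicate block (3727). The fit of all 9 libraries called 1 (3514 genes), *Tap2* (FDR = 0.0458) in place of *Tapbp* (FDR = 0.0642). For MBV against PBS, 4 passed with the block (3876 genes). Same-numbered replicates deviated together by r of -0.366 to 0.159, so the numbers are not taken to pair the samples.

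Leaving out each replicate in turn gave 0 to 2 members for MBV against fluvastatin, 0 to 4 for fluvastatin against PBS and 0 to 3 for MBV against PBS, and over all genes 0 to 197, 1726 to 4402 and 2711 to 5664 calls. Without PBS 3 and MBV 3, a choice made after seeing the data, 5 members and 6156 genes passed for MBV against PBS. Values of both signs were seen, for fluvastatin against PBS, for *H2-D1* (-0.16 to 0.35), *H2-T23* (-0.33 to 0.21), *Psmb8* (-0.40 to 0.18) and *Nlrc5* (-1.02 to 0.63). For MBV against PBS they were seen for *H2-T23* (-0.0025 to 0.62), *Tap2* (-0.18 to 0.0595), *Psmb8* (-0.19 to 0.36), *Psmb9* (-0.80 to 0.0188) and *Nlrc5* (-0.47 to 1.17, and 1.39 without both libraries, when *Tap2* was 0.0453). For MBV against fluvastatin they were seen for *Psmb9* (-0.0660 to 0.70) and *Tapbp* (-0.14 to 0.0333). Scaling by library size alone turned *Tapbp* there to 0.00013, and the replicate block turned *Nlrc5* for MBV against PBS to 0.28. The cause was not tested.

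The comparison of the combined treatment with PBS and both main effects were not run. Counts were lowest for *Psmb9* and *Psmb8*, and 3 libraries a group limit all members.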
